A study of Mus musculus with 3 samples.

Results

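RNA levels of p53 and 9 genes around it were examined in B16 mouse melanoma cells: Trp53, which encodes p53 itself, its regulators Mdm2 and Mdm4, and the targets Ccng1, Zmat3, Eda2r, Phlda3, Aen, Sesn1 and Trp53inp1. The 10 genes were picked by symbol, and each had a row among the 17285 rows of the count table. The cells are a stable B16 line that carries an empty expression vector (Mock), and RNA was sequenced in 3 samples, Mock replicates 1, 2 and 3, which form the whole series and a single group. The labels name no untreated B16 cells and no treatment, and leave unstated whether the line is 1 clone or a pool. Since nothing in them ties a replicate to a culture of its own, the spread behind each p-value is that of these 3 samples and may be technical. With 1 group, no conditions could be compared. The levels were set against a fixed level, against one another within each library, and between libraries.

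p53 is a transcription factor that responds to DNA damage and other stresses by switching on genes of growth arrest, DNA repair and cell death. Its amount is held down by MDM2, a ubiquitin ligase whose own gene p53 activates, so that the pair forms a feedback loop. p53 is also restrained by MDM4, a related protein that binds its activation domain and pairs with MDM2. The targets described here act at different points: cyclin G1 (Ccng1) binds a phosphatase, sestrin 1 (Sesn1) restrains mTORC1, PHLDA3 restrains AKT, EDA2R is a receptor of the TNF family, AEN is a nuclease, ZMAT3 binds RNA and TP53INP1 acts in stress signalling and autophagy.

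p53 binds DNA through an element made of a pair of decamers, each with a C and a G held 2 bases apart (CNNG) at its core. RefSeq promoter windows, 250 bases before to 50 after a start (build GRCm38.p6), were matched for 8 of the 10 genes, all but Zmat3 and Trp53inp1, and gave 11 windows. A perfect match to the p53 decamer consensus, which reads the same on both strands, stood in 6 of these 11 windows and in 8.36% of all 32851 windows. A run of 20 bases that holds 2 abutting decamers with both cores intact and at most 3 mismatches, and so may overlap a perfect decamer, stood in 5 of the 11 and in 1.38% of all windows. The best of them, and the single decamer of Mdm2, are shown to describe where letters like those of the p53 element stand in these windows. Capitals mark the 20 bases, or for Mdm2 the single decamer, and positions count from 0 at the annotated start.
Ccng1, chr11:40755402-40755536, minus strand, bases -250 to -116: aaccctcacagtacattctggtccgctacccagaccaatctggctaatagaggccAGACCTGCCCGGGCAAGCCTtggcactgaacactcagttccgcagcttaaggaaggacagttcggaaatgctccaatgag
Aen, chr7:78895937-78895956, plus strand, bases -121 to -102: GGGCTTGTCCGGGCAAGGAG
Trp53, chr11:69580264-69580323, plus strand, bases -95 to -36: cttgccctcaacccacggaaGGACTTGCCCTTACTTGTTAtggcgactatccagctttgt
Sesn1, chr10:41887246-41887305, plus strand, bases -193 to -134: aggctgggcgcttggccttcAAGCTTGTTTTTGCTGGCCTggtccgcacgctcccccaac
Mdm2, chr10:117710915-117710964, minus strand, bases -206 to -157: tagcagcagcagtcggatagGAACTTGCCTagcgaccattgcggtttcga
The Ccng1 run had 1 mismatch, a count that only 22 of all windows (0.067%) met or bettered, whereas the runs of Aen, Trp53 and Sesn1 each had 3. The Aen run lies in both of that gene's overlapping windows, at bases 10 to 29 from the other start. It is thus counted for each window among the 5, as its perfect decamer is among the 6. The Sesn1 run lies before the second of its 2 starts. The windows of Mdm4, Phlda3 and Eda2r held no perfect decamer, which says only that these letters are not in these windows. A match is a description of the sequence and not a bound site.

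The libraries held 9328096, 9456527 and 9438905 counts, a highest to lowest ratio of 1.01, and a single read was worth about 0.106 CPM (read counts relative to library size, scaled by TMM). All 8 pigment cell markers examined were above 1 CPM, with summed levels of 18313 to 19436 CPM. Their means ran from 6.56 CPM for Tyr to 12337 CPM for Tyrp1. None of the 3 leukocyte markers measured had a read (Csf1r, Adgre1 and Tyrobp). Of 5 endothelial markers only Pecam1 had reads, 1 in each library. Of 5 fibroblast markers Dcn, Col3a1 and Fap had none, Pdgfra had 5 in all, and only Col1a1 was above 1 CPM, at 8.29 CPM. In every pair of libraries the counts differed by more than sampling noise, with a chi-square per gene between 1.62 and 1.99, so no library was a copy of another.

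All 10 genes were transcribed above 1 CPM by edgeR's quasi-likelihood test with Benjamini-Hochberg adjustment, against 74.3% of the 14408 genes tested, so the calls by themselves do not set these genes apart. None was below 1 CPM, where 20.2% of all genes were; the count was also 0 at an unadjusted p under 0.05 and by DESeq2. The weakest call, that of Sesn1, had an edgeR adjusted p of 1.82e-10. The median of the 10 genes was 73.2 CPM, beside 23.6 CPM over all genes with a count, and per kilobase of exon 10.2 CPM beside 4.92 CPM. In bulk RNA, fewer cells that transcribe a gene and less RNA per cell cannot be told apart. The counts show neither the sequence of Trp53 nor the amount of its protein.

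Trp53 itself was among the more abundant genes of these cells. It collected 1897, 1933 and 1894 reads in replicates 1, 2 and 3, which is 203, 205 and 201 CPM, or 203 ± 2.01 CPM (mean ± SD, n = 3, as for all values below). The 3 libraries lay close together, and 93.4% of the genes with a count had a lower CPM. Trp53 lies on chromosome 11, 69580359 to 69591873, plus strand (GRCm38, GENCODE M21), with 4045 bases of merged exon, and per kilobase it stood at 50.1 ± 0.496 CPM. Of its 4154 distinct words of 31 bases, 422 (10.2%) also occur in other genes, 365 of them in the pseudogene Trp53-ps. This pseudogene has no row in the count table. Whether reads of such words were counted for Trp53 cannot be told, although its counts are whole numbers.

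The regulators Mdm2 and Mdm4 stood far apart. Mdm2 (chromosome 10, 117688875 to 117710758, minus strand) had 154, 148 and 155 CPM in replicates 1, 2 and 3, from 1440.69, 1392.58 and 1460.62 estimated reads. These are the only fractional counts among the 10 genes, and 103 of its 5187 distinct 31-base words (1.99%) are shared with other genes, 72 of them with Cltc. How many Mdm2 reads were divided between genes was not analysed here, so its level is uncertain. Mdm4 (chromosome 1, 132959484 to 133030561, minus strand) had 446, 387 and 383 reads, or 47.7, 41.0 and 40.6 CPM. Replicate 1 was the high library for Mdm4, and no Mdm4 value came near an Mdm2 value. The log2 ratio of Mdm2 to Mdm4 per kilobase of exon was 3.23, 3.39 and 3.47, with a mean of 3.36 ± 0.12, which is 10.3-fold. Length enters this ratio strongly, since the merged exons of Mdm4 cover 14798 bases over 14 transcripts and those of Mdm2 5083 bases. By the longest transcript of each gene the ratio was 2.998 (7.99-fold) and in reads 1.82 (3.54-fold), and Mdm2 was higher in 3 of 3 libraries each way. Of the 31-base words of Mdm4, 13.8% are shared, chiefly with the pseudogene Mdm4-ps, which has no row in the count table.

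Among the targets, Ccng1 was the most abundant. Ccng1 (chromosome 11, 40748552 to 40755311, minus strand) had 3183, 3335 and 3463 reads in replicates 1, 2 and 3, or 340.1, 353 and 367 CPM. Its mean of 354 ± 13.6 CPM exceeded that of 97.0% of genes with a count. Phlda3 (chromosome 1, 135766119 to 135769136, plus strand) had 81.6, 84.5 and 90.0 CPM from 764, 797 and 849 reads. It is the shortest of the 10, with 1559 bases of merged exon, and so moved from the fifth place in reads to the second per kilobase, at 54.8 ± 2.75 CPM.

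Zmat3, Aen and Trp53inp1 formed a middle range. Zmat3 (chromosome 3, 32334792 to 32366014, minus strand) had 116, 111 and 115 CPM from 1089, 1045 and 1086 reads. Its merged exons cover 11435 bases, so that per kilobase it stood at only 9.98 ± 0.258 CPM. Aen (chromosome 7, 78895854 to 78911209, plus strand) had 58.2, 62.5 and 62.3 CPM from 545, 590 and 587 reads, and stood at 10.5 ± 0.416 CPM per kilobase. Between these 2 genes the per-kilobase values overlapped across libraries, so they could not be ordered. Trp53inp1 (chromosome 4, 11156431 to 11174379, plus strand) had 47.2, 46.1 and 41.2 CPM from 442, 435 and 388 reads, or 6.92 ± 0.499 CPM per kilobase, below both in every library.

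Eda2r and Sesn1 were the scarcest targets. Eda2r (chromosome X, 97333840 to 97377216, minus strand) had 18.9, 19.2 and 20.9 CPM from 177, 181 and 197 reads. Sesn1 (chromosome 10, 41809935 to 41908424, plus strand) had 13.5, 13.8 and 14.3 CPM from 126, 130 and 135 reads, the fewest of the 10 genes. Per kilobase, Sesn1 stood at 3.48 ± 0.109 CPM and Eda2r at 3.34 ± 0.182 CPM, with overlapping values. Mdm4, at 2.91 ± 0.267 CPM per kilobase, overlapped Eda2r as well. In CPM, 46.7% of genes with a count were below Eda2r and 41.3% below Sesn1.

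**Figure D1:**
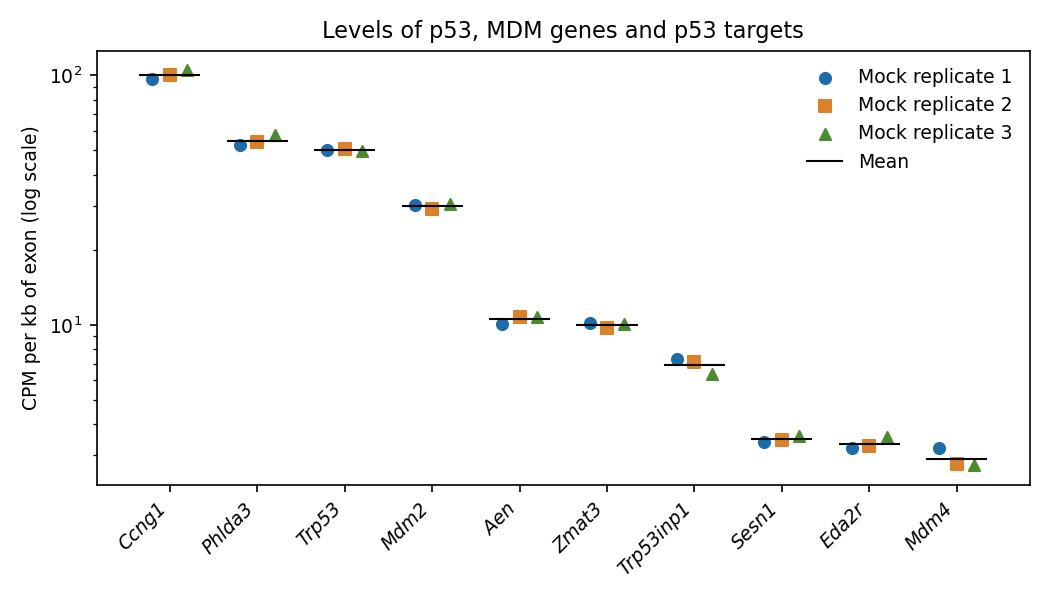
Level of each gene in CPM per kilobase of merged exon (log axis) in Mock replicates 1, 2 and 3 (points), with the mean as a line. Ccng1 leads at 100.7 CPM per kilobase, and Sesn1, Eda2r and Mdm4 close the order between 2.91 and 3.48.

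The order per kilobase of merged exon was thus Ccng1, Phlda3, Trp53, Mdm2, Aen, Zmat3, Trp53inp1, Sesn1, Eda2r and Mdm4, with a 34.6-fold distance from first to last. The ranges of neighbours over the 3 libraries did not overlap, except those of Aen and Zmat3, Sesn1 and Eda2r, and Eda2r and Mdm4. By the longest transcript Trp53 came before Phlda3 with overlapping values, Zmat3 before Aen, and Mdm4 before Eda2r and Sesn1, with no overlap between these neighbours.

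Set against Trp53 within each library, the targets and regulators fell on both sides of it. Ccng1 was higher than Trp53 per kilobase, at log2 ratios of 0.95, 0.99 and 1.07 in replicates 1, 2 and 3, which is 2.01-fold (mean 1.01 ± 0.06, limma adjusted p = 8.46e-09). Phlda3 was slightly higher, at 0.06, 0.10 and 0.22 (mean 0.13 ± 0.08, limma adjusted p = 0.00747). That call rested on the length used: by the longest transcript the mean was -0.058 (limma adjusted p = 0.127) and in reads -1.25, and without replicate 2 the call was lost (limma adjusted p = 0.110). Of 14095 genes tested in this way, 6.70% were higher than Trp53 and 92.6% lower.

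The other 7 genes were below Trp53, each in 3 of 3 libraries. Mdm2 came closest, at log2 ratios of -0.73, -0.80 and -0.70 per kilobase, or 0.597 times the Trp53 level (mean -0.74 ± 0.05, limma adjusted p = 5.97e-08). Aen (-2.25 ± 0.06), Zmat3 (-2.33 ± 0.05) and Trp53inp1 (-2.86 ± 0.10) followed. Sesn1 (-3.84 ± 0.05), Eda2r (-3.91 ± 0.09) and Mdm4 (-4.11 ± 0.13) lay lowest, Mdm4 at 0.058 times the Trp53 level (limma adjusted p = 7.59e-10). These 7 stayed below Trp53 by the longest transcript and in reads, though the distance of Mdm4 shrank to -3.35 and -2.24 and that of Zmat3 to -2.08 and -0.83.

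**Figure D2:**
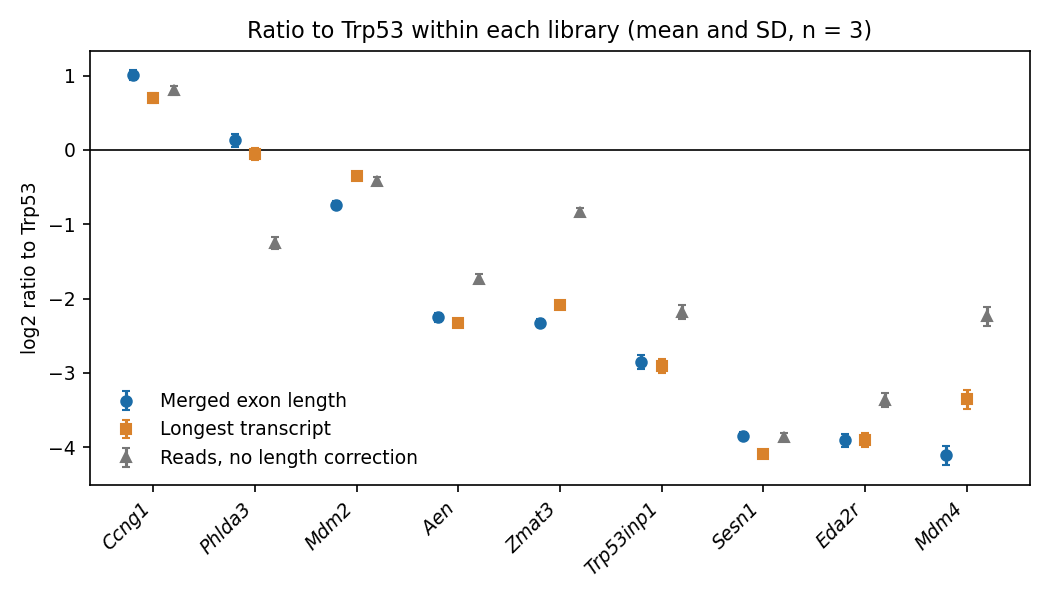
Mean log2 ratio of each gene to Trp53 within a library, with SD over 3 libraries, by merged exon length, by longest transcript and in reads. Ccng1 is above 0 on each scale, Phlda3 changes side, and the other 7 genes are below 0.

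The spread of the 10 genes between libraries was set against counting error. By a Poisson deviance test with Benjamini-Hochberg adjustment over the 11000 genes that averaged 10 counts or more, 0 of the 10 varied beyond counting error, beside 3.31% of all genes tested, so that a count of 0 among 10 does not set them apart. At an unadjusted p under 0.05 there were 2, Ccng1 and Mdm4. The share of all genes at that threshold was not computed, so this count does not set the 10 genes apart either. The coefficient of variation was below that of counting alone in 6 of the 10 genes. The share of all genes was not computed, so this count does not show the 10 to be steadier than others. For Trp53 the coefficient of variation was 0.989%, where counting gives 2.29%, and for Sesn1 3.13%, where counting gives 8.76%. For Mdm2 it was 2.60%, close to the 2.64% of counting. It was above counting for Ccng1 (3.85% and 1.73%), Mdm4 (9.16% and 4.97%), Trp53inp1 (7.21% and 4.87%) and Phlda3 (5.02% and 3.53%). The libraries did not deviate alike: replicate 1 was the lowest for 5 genes, among them Ccng1 and Phlda3, and the highest for 3, Mdm4, Zmat3 and Trp53inp1. Those 3 have the longest merged exons of the 10. Over all genes that averaged 100 counts or more, the median deviation of replicate 1 on the log2 scale was 0.0075 for 3180 genes with at least 6 kb of exon and -0.025 for 893 genes under 2 kb, and whether this plays a part in the deviations of the 10 genes was not tested.

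**Figure D3:**
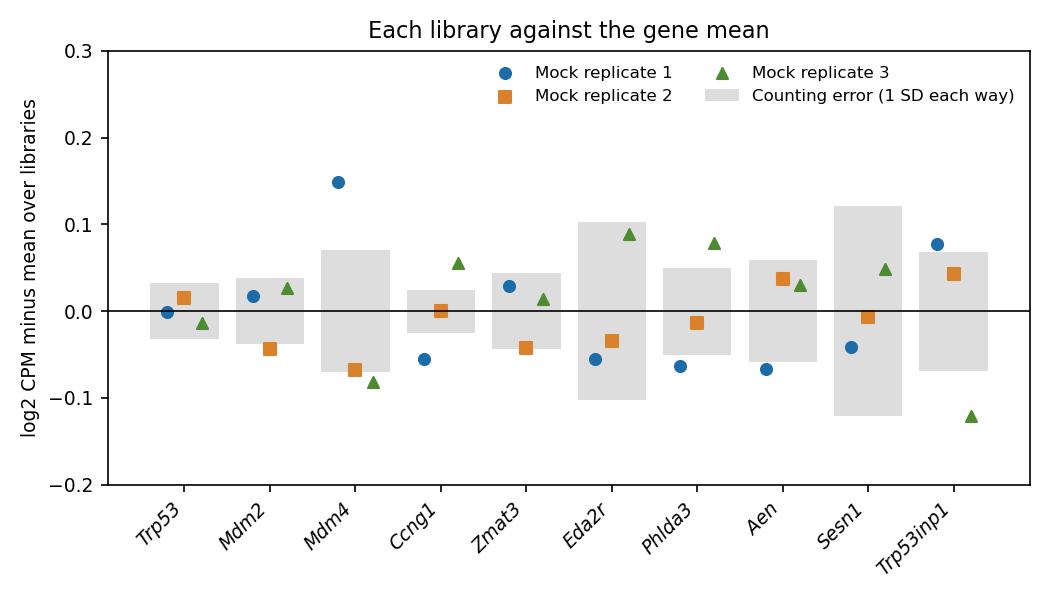
Deviation of each library from the gene's mean log2 CPM (points), with grey bars for 1 SD of counting error each way. Mdm4 in replicate 1 stands farthest out, at 0.15, and the 3 values of Trp53 lie within the bar.

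Family members of the 10 genes were counted as well. Of 13 such genes, 7 were above 1 CPM, 3 below, 1 unresolved and 2 without a read. Among all 17285 rows, 10711 were above, 2907 below, 790 unresolved and 2877 without a read. The other p53 family genes were nearly silent: Trp63 had 2 reads in the 3 libraries and Trp73 had 1, and both were below 1 CPM (edgeR adjusted p = 7.24e-04 and 6.10e-04). Phlda2, with 1 read, was the third gene below, and Zmat4 and the EDA receptor gene Edar had no read, which allows up to 0.106 CPM at 3 counts over the group. For Trp73 and Phlda2 the call was lost with DESeq2 (adjusted p = 0.0695 for each). Such limits cover counting error only.

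Set beside the listed relatives, the gene among the 10 was higher in some pairs and lower in others. Ccng1 was far above Ccng2, at log2 ratios of 5.30, 5.49 and 5.55 per kilobase, or 43.7-fold. Zmat3 was 15.3-fold above Zmat1 (3.93 ± 0.23), and Aen was 14.7-fold above Isg20 (3.88 ± 0.62), a related exonuclease gene that with 18, 8 and 12 reads was not resolved from 1 CPM (edgeR adjusted p = 0.183). In the sestrin family Sesn1 was 6.84-fold above Sesn3 (2.77 ± 0.15) but below Sesn2, at log2 ratios of -3.40, -3.36 and -3.26, so that Sesn2, which is also induced under ER stress, stood 10.1-fold higher. Sesn2 had 123 ± 2.23 CPM. Trp53inp1 was below Trp53inp2 (-0.94 ± 0.15), which had 69.5 ± 2.26 CPM, and Aen below Isg20l2 (-0.89 ± 0.08), which had 56.5 ± 1.06 CPM. Phlda3 and Phlda1 (127 ± 3.95 CPM) could not be ordered per kilobase (-0.07 ± 0.11), with Phlda3 higher in 1 of 3 libraries. These ratios are descriptions without a test, and each mean kept its sign by the longest transcript. Some sizes depended on the length used. By the longest transcript Sesn1 stood 4.28-fold above Sesn3, Aen 10.1-fold above Isg20 and Ccng1 36.3-fold above Ccng2, whereas Zmat3 stayed 14.5-fold above Zmat1.

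**Figure D4:**
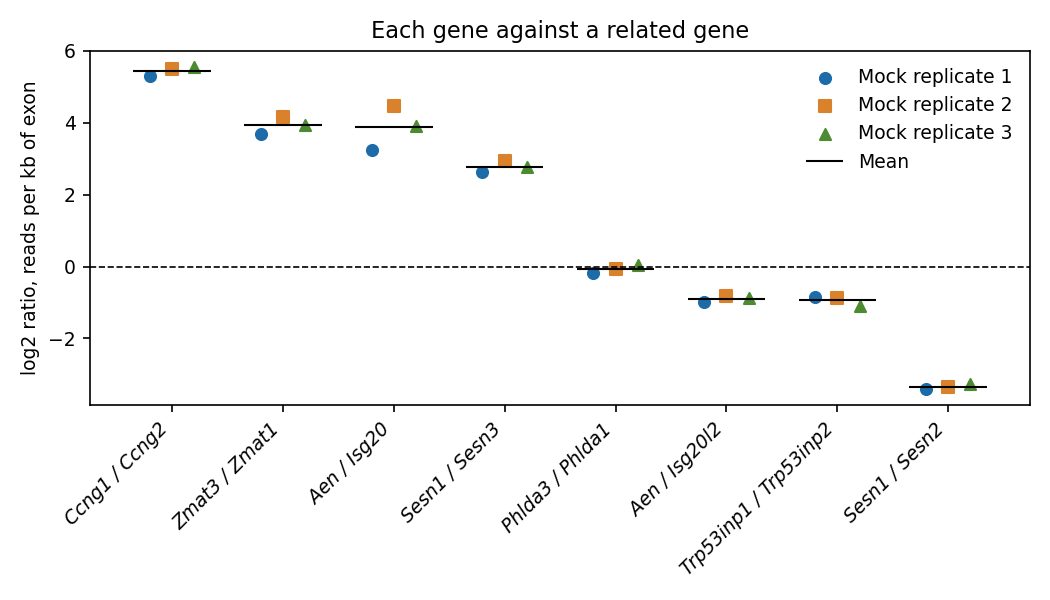
log2 ratio of each gene to a related gene in reads per kilobase of merged exon, in Mock replicates 1, 2 and 3 (points), with the mean as a line. Ccng1 stands 5.45 above Ccng2, and Sesn1 stands 3.34 below Sesn2.

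Other genes of the p53 pathway were counted in 4 lists of 56 genes, each with a row. Of these, 50 were above 1 CPM, 2 below, 1 unresolved and 3 without a read, and their median was 35.6 CPM. Over all 17285 rows, 10711 were above, 2907 below, 790 unresolved and 2877 without a read, with a median of 12.6 CPM. Of 24 regulators and partners of p53, 23 were above 1 CPM. The highest were Huwe1 (557 ± 19.4 CPM), a ubiquitin ligase, Rpl5 (517 ± 24.7 CPM) and Rpl11 (376 ± 4.08 CPM), ribosomal proteins that can bind MDM2, and Usp7 (371 ± 14.9 CPM), which removes ubiquitin from p53 and MDM2. Rpl5 and Rpl11 have fractional counts, so their levels are uncertain. The exception was Cdkn2a, which encodes the MDM2 inhibitor ARF as well as p16 and had no read.

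All 8 targets of growth arrest were above 1 CPM, beside 74.3% of all genes tested, a difference that was not tested for so short a list. Cdkn1a, which encodes the cyclin-dependent kinase inhibitor p21, had 2114, 2163 and 2214 reads, or 230 ± 4.52 CPM, and was followed by Gtse1 (144 ± 6.59 CPM), Ptpn14 (124 ± 1.57 CPM) and Gadd45a (73.7 ± 3.22 CPM). Of 10 targets of cell death, 7 were above 1 CPM, beside 10711 of all 17285 rows. They were led by Ei24 (118 ± 4.01 CPM), Bax (96.2 ± 3.54 CPM), Apaf1 (42.1 ± 2.01 CPM) and Bid (35.1 ± 0.831 CPM). Pmaip1, which encodes the BH3-only protein NOXA, had 1 read in each library and was below 1 CPM (edgeR adjusted p = 6.05e-04). The death receptor gene Fas had no read, and Perp, with 10, 4 and 6 reads, was unresolved (edgeR adjusted p = 0.202).

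Of 14 targets of repair and metabolism, 12 were above 1 CPM, beside 10711 of all 17285 rows. They were led by Gdf15, a secreted stress cytokine (491 ± 49.1 CPM), Ephx1 (223 ± 4.11 CPM), Ak1 (107 ± 8.33 CPM) and Abhd4 (99.1 ± 3.88 CPM). Ddb2, a DNA damage sensor whose human counterpart is a p53 target, had 4 reads in all after rounding and was below 1 CPM (edgeR adjusted p = 0.00299), a call that was lost without replicate 1 (edgeR adjusted p = 0.0855). Pltp, a lipid transfer protein gene, had no read. Of the 50 pathway genes tested for spread between libraries, 3 varied beyond counting error, beside 3.31% of all genes: Gdf15, with 4168, 4573 and 5119 reads, Rpl5 and Ep300. They were named after their values were seen.

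**Figure D5:**
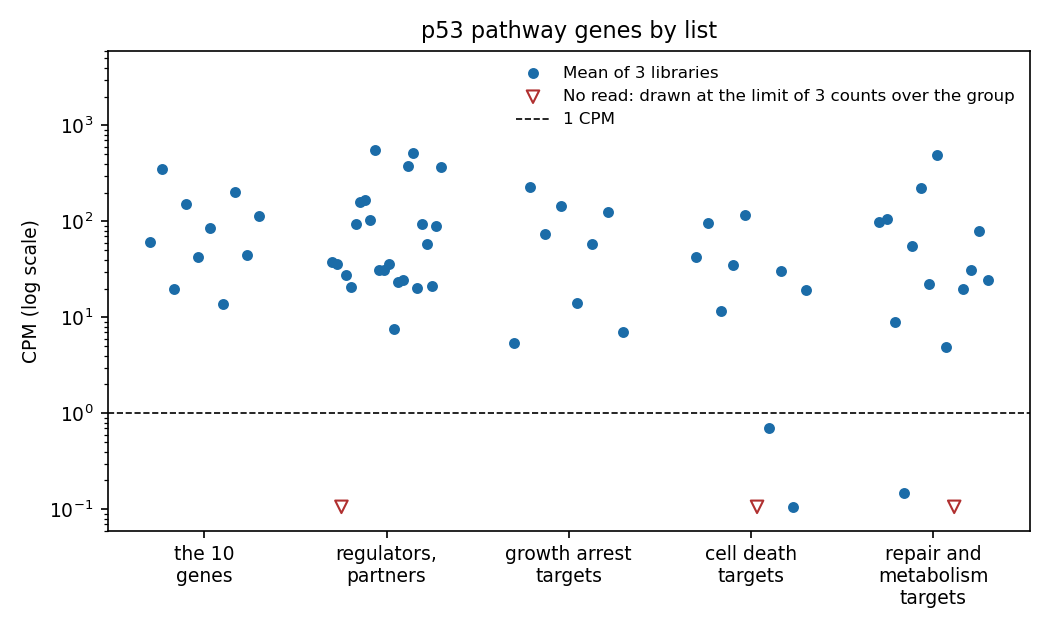
Mean CPM over 3 libraries (log axis) of the 10 genes and of the genes of 4 lists of the p53 pathway, in alphabetical order within a list. Triangles mark Cdkn2a, Fas and Pltp, which had no read, at the floor of 3 counts over the group (0.106 CPM), and the dashed line marks 1 CPM.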

How the data were processed

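The file deposited by the authors lists, for every gene symbol, an estimated count in each of the 3 samples, neither normalized nor pooled. Per the submitters' processing notes, the genome build was GRCm38.p6. An aligner, a counter and its strand setting are not given in the sources used. Of 17285 rows, 2270 hold a value over 0.005 away from a whole number. Counts were rounded for tests, and 2877 rows then had none.

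Levels were compared with 1 CPM through the edgeR 4.0.16 quasi-likelihood fit (R 4.3.3, TMM scaling, intercept alone, two-sided, Benjamini-Hochberg adjustment over 14408 genes). Ratios to Trp53 came from counts plus 0.5 per kilobase and limma 3.58.1 with a trend. DESeq2 1.42.0 was an alternative. Exon lengths were those of GENCODE M21, found for 16838 symbols. Spread was tested by Poisson deviance.

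The genes named are the 10, and in each list the 4 highest, those below 1 CPM and those without a read. Perp, Isg20, Ep300 and the other family members were named after their values were seen. The genes and lists were chosen with earlier results of these data known, and the promoter search after the windows had been looked at.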

Additional observations from a re-analysis of the deposited data

How the results depend on the processing

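All 10 genes stayed above 1 CPM with library totals or DESeq2's size factors, among genes with at least 10 counts, by DESeq2's Wald test, against 0.5 and 2 CPM, and without each replicate in turn. None became variable under the other scalings or at a mean of at least 50 counts. The 2 pathway genes below 1 CPM became 0 when genes under 10 counts were left out, by construction, and ranged from 1 to 2 without single replicates. Against 2 CPM they were 3, with Perp called below (edgeR adjusted p = 0.00219). The number of genes higher than Trp53 per kilobase, 2, was 1 by the longest transcript and 1 in reads, and ranged from 1 to 2 without single replicates. The change was that of Phlda3, whose log2 ratio turned to -0.058 and -1.25. The log2 ratio of Mdm2 to Mdm4, 3.36, became 2.998 by the longest transcript and 1.82 in reads, through the lengths used. No paired analysis was possible because the series holds 1 group. Depth limits the genes with few reads: with no read in any library, the floor of 3 counts over the group is 0.106 CPM and the exact two-sided 95% Poisson upper limit 0.131 CPM, both for counting error only.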
